A study of Homo sapiens with 6 samples.

Results

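Aminoacyl-tRNA synthetases, the enzymes that load each amino acid onto its transfer RNA, were followed in MDA-MB-231 cells in which ING2 had been depleted. The 35 genes comprise 20 cytosolic enzymes or subunits and 15 mitochondrial enzymes, the mitochondrial ones carrying a 2 at the end of the symbol. They were chosen by name, with earlier results of these data known. A gene was taken as measured when at least 1 probe set was annotated to it alone, and its brightest probe set, by mean log2 intensity of the 6 arrays, stood for the gene. This held for 32 of the 35, namely 17 cytosolic and 15 mitochondrial, among 19777 genes on the array. MARS and QARS were covered by probe sets that also name a microRNA gene (3 for MARS and 1 for QARS) and DARS was not analysed here, so no values are given for these 3.

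The arrays came from 3 samples of MDA-MB-231 cells given an siRNA against ING2 and 3 samples given a non-targeting control siRNA. A single ING2 siRNA is named, so its effects on other transcripts cannot be told apart from those of ING2 loss. RNA was collected 4 days after transfection according to one label field and 3 days according to another. MDA-MB-231 is a mesenchymal breast cancer line of human origin, and ING2 is a PHD finger protein of a SIN3 histone deacetylase complex. ING2 intensity was 163, 188 and 161 units on the ING2 siRNA arrays, against 1400, 1349 and 1324 units on the control arrays, a level of 12.5% of control (log2 change -2.997, SE 0.09, limma adjusted p = 1.85e-07).

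Each synthetase recognises 1 amino acid and its matching transfer RNAs and joins them at the cost of ATP, and the charged transfer RNA is then carried to the ribosome by an elongation factor. Mammalian cells hold a cytosolic set and a mitochondrial set, both encoded in the nucleus. GARS and KARS each encode the enzyme of both compartments, and EPRS encodes a fused enzyme for glutamate and proline. Several cytosolic enzymes sit together in the multisynthetase complex. When amino acids run short, uncharged transfer RNA activates the kinase GCN2, the translation factor eIF2 is phosphorylated, and the transcription factor ATF4 raises many genes of amino acid supply, among them cytosolic synthetases.

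The arrays differed in ways that touch every value below. Of all 19777 genes, 1640 passed a Benjamini-Hochberg adjusted p of 0.05 in limma, 716 higher and 924 lower after ING2 siRNA. That split was 260 higher and 1450 lower after centring each array on its median, and 944 higher and 623 lower after quantile normalization. Median intensity was 78.3 to 81.4 on ING2 siRNA arrays, against 75.6 to 77.1 on control arrays. The log2 interquartile range was 3.18 ± 0.08 on ING2 siRNA arrays and 3.35 ± 0.02 on control arrays (SD, n = 3, exact two-sided permutation p = 0.1, the smallest that 3 against 3 allows). The log2 gap between 3' and 5' GAPDH control probe sets was 0.316 ± 0.042 on ING2 siRNA arrays and 0.205 ± 0.015 on control arrays (SD, n = 3, exact permutation p = 0.1), and the same gap for ACTB was 0.541 ± 0.096 and 0.490 ± 0.110 (SD, n = 3, exact permutation p = 0.6). The part of these measures of RNA integrity in the results was not tested. All 6 markers of the mesenchymal line (VIM, CD44, AXL, CAV1, MSN and ZEB1) lay in the brightest intensity decile and none passed the threshold, while the 6 luminal markers, none past the threshold, spread from decile 1 (PGR), 2 (FOXA1), 3 (CDH1), 5 (ESR1) and 6 (GATA3) to the brightest (KRT19). The 3 blood markers measured (PTPRC, CD3E and HBB) lay in deciles 1 to 5, and their summed intensity was 305 to 310 units on ING2 siRNA arrays, against 265 to 273 units on control arrays, with none past the threshold. Of 4 fibroblast markers 1 rose (DCN) and 1 fell (LUM), with a summed intensity of 744 to 776 units on ING2 siRNA arrays and 705 to 816 units on control arrays. The part of these markers in the results was not tested. Whether replicates came from separate cultures is not given in the labels. The p-values therefore rest on sample-to-sample spread that may be technical.

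Differences in synthetase mRNA, read at the brightest probe set of each gene, were small. Of the 32 measured genes, 1 passed the threshold, the mitochondrial tyrosine enzyme gene YARS2, which was lower after ING2 siRNA. This is 3.12% of the synthetases, against 8.29% of all genes (3.62% higher and 4.67% lower). Groups did not overlap for 12 of the 32 (7 higher and 5 lower), or 37.5%, against 36.5% of all genes (22.8% higher and 13.8% lower). An unadjusted limma p under 0.05 was reached by 8 of them, or 25%, against 32.9% of all genes. The highest log2 change was 0.32 (WARS) and the lowest -0.32 (YARS2). At the brightest probe set of all 32 genes the 95% interval of the change in the deposited values lay within 1.5-fold either way. The outermost bounds were 0.682-fold and 1.44-fold of control. This does not hold for every probe set: a dimmer EPRS probe set had a log2 change of -0.68, where 1.5-fold is 0.585. Intervals under other scalings were not set against this bound. After quantile normalization the log2 change was 0.44 for both AARS and WARS. The lowest WARS2 value in the alternatives that kept all arrays was -0.38. The standard error of a change was 0.07 to 0.13.

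**Figure D1:**
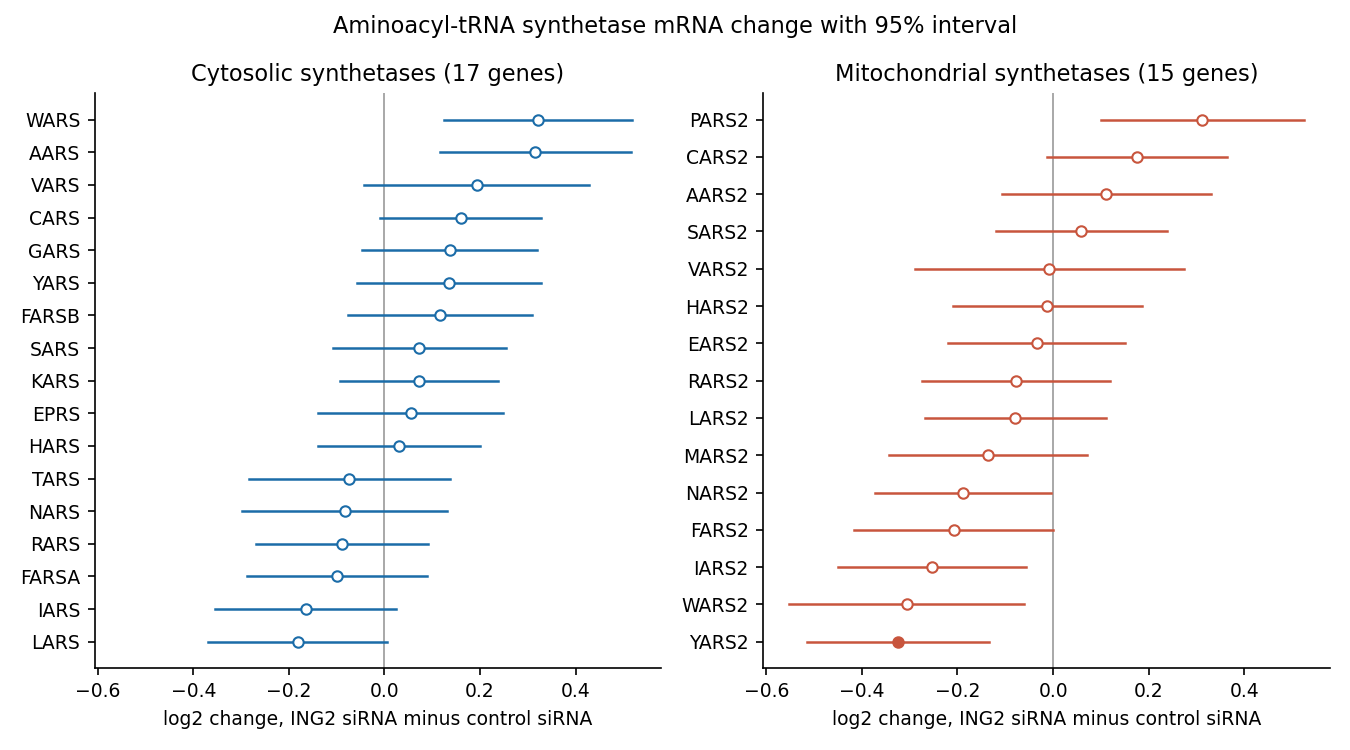
Log2 change of each measured synthetase, ING2 siRNA minus control siRNA, for 17 cytosolic genes (left) and 15 mitochondrial genes (right). Points are the change of the gene's brightest probe set and lines the 95% interval from limma over 3 arrays a group; the filled point (YARS2) passed the adjusted threshold and open points did not.

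YARS2 attaches tyrosine to mitochondrial transfer RNA, and inherited loss of its function causes a myopathy with lactic acidosis and sideroblastic anaemia. Its intensity was 192, 191 and 176 units on ING2 siRNA arrays, against 243, 241 and 217 units on control arrays. Every ING2 siRNA array read below every control array. The log2 change was -0.32 (SE 0.09, 0.799-fold of control, limma adjusted p = 0.0470). This adjusted p lies close to the threshold: it was 0.0558 after quantile normalization and 0.0512 to 0.1496 when each of the 6 arrays was left out in turn, where it never passed. The change itself lay between -0.38 and -0.28 in those 6 fits. Without ING2 siRNA replicate 1 or 3, or control replicate 2 or 3, only 2 or 3 genes of the whole array passed. Those fits therefore say little about YARS2. With all arrays kept, YARS2 passed in 8 of the 9 alternatives. YARS2 has 1 probe set, so no other probe set can be set beside it.

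Among the other mitochondrial enzymes the values of WARS2, IARS2, FARS2 and NARS2 were the lowest. WARS2, the mitochondrial tryptophan enzyme gene, read 532, 606 and 510.3 units on ING2 siRNA arrays, against 597, 770.0 and 678 units on control arrays. The groups overlapped by 1 array on each side, and the log2 change of -0.31 (SE 0.11) had a limma adjusted p of 0.0919. A dimmer WARS2 probe set gave -0.34 with no overlap between the groups (217 to 245 units on ING2 siRNA arrays and 278 to 303 units on control arrays; limma adjusted p over probe sets 0.0577). WARS2 passed as lower without control replicate 1 (-0.40, limma adjusted p = 0.0436) and with its most variable probe set (-0.34, 0.0377), and in 1 further setting.

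IARS2, the mitochondrial isoleucine enzyme gene, read 2935, 3429 and 3376 units on ING2 siRNA arrays, against 3716, 3912 and 3957 units on control arrays. All ING2 siRNA arrays were below all control arrays, with a log2 change of -0.25 (SE 0.09, limma adjusted p = 0.0854). Its size shrank to -0.15 with cyclic loess and to -0.11 with quantile normalization, and grew to -0.32 with median centring (limma adjusted p = 0.0596). IARS2 passed as lower with a trended robust variance (limma adjusted p = 0.0497). FARS2, for phenylalanine, had a log2 change of -0.21 (limma adjusted p = 0.152) and NARS2, for asparagine, -0.19 (0.144). Neither overlapped between the groups at these probe sets. Dimmer FARS2 probe sets gave -0.05 and 0.14.

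PARS2 charges mitochondrial transfer RNA with proline. Its intensity was 182, 195 and 210.0 units on ING2 siRNA arrays, against 142, 168 and 163 units on control arrays. It was the highest of the mitochondrial values, with a log2 change of 0.31 (SE 0.10, limma adjusted p = 0.0638) and no overlap between the groups. CARS2, the mitochondrial cysteine enzyme gene, had 0.17 (limma adjusted p = 0.177), also without overlap, and AARS2 0.11 with overlap. A further AARS2 probe set of similar intensity gave 0.25 without overlap (limma adjusted p over probe sets 0.0868). It read 230 to 241 units on ING2 siRNA arrays and 197 to 201 units on control arrays. The other 7 mitochondrial genes (SARS2, VARS2, HARS2, EARS2, RARS2, LARS2 and MARS2) lay between -0.14 and 0.06. At the brightest probe set the groups overlapped for each of them. A dimmer LARS2 probe set gave 0.18 without overlap (limma adjusted p over probe sets 0.175). Further RARS2 probe sets are given below.

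In the cytosolic set the values of WARS and AARS were the highest and just missed the threshold. WARS, the tryptophan enzyme gene, is known for its induction by interferon-gamma. It read 2372, 2533 and 2289.9 units on ING2 siRNA arrays, against 2048, 1953.5 and 1762 units on control arrays. All ING2 siRNA arrays were above all control arrays, with a log2 change of 0.32 (SE 0.09, 1.25-fold, limma adjusted p = 0.0511). A dimmer WARS probe set gave 0.13 (limma adjusted p over probe sets 0.4002).

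AARS, the alanine enzyme gene, read 1642, 1563 and 1712 units on ING2 siRNA arrays, against 1451, 1269 and 1239 units on control arrays. The groups did not overlap, and the log2 change was 0.32 (SE 0.09, 1.24-fold, limma adjusted p = 0.0544). After cyclic loess both genes passed as higher, AARS with 0.41 (limma adjusted p = 0.0395) and WARS with 0.42 (0.0271). Each passed in 7 of the 9 alternatives that kept all arrays, the exceptions being median centring for both (0.0998 for AARS and 0.1048 for WARS), the choice of the most variable probe set for AARS (0.0519) and the mean of probe sets for WARS (0.0721). With each of the 6 arrays left out in turn, the limma adjusted p was 0.0270 to 0.1705 for AARS and 0.0375 to 0.1658 for WARS, and each passed only without control replicate 1. The fits without ING2 siRNA replicate 1 or 3, or control replicate 2 or 3, passed only 2 or 3 genes of the whole array.

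**Figure D2:**
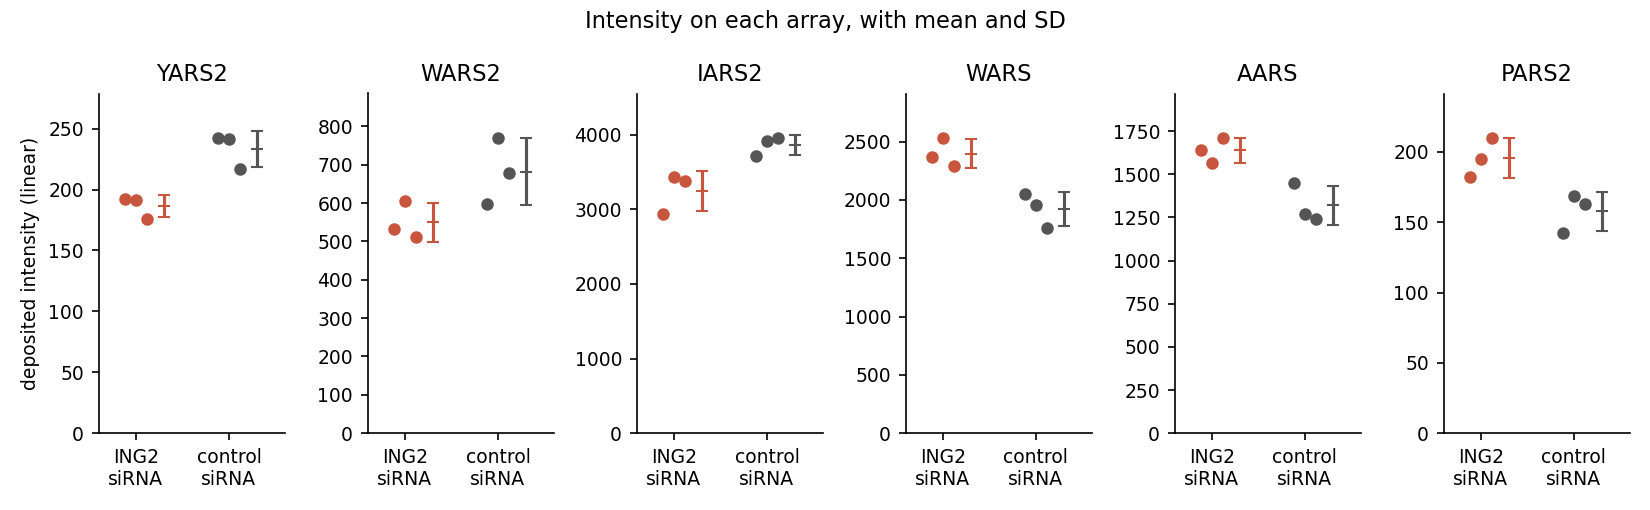
Deposited intensity on each of the 6 arrays for YARS2, WARS2, IARS2, WARS, AARS and PARS2, ING2 siRNA left of control siRNA, with mean and SD (n = 3) beside the points. YARS2 and IARS2 read lower and WARS, AARS and PARS2 higher on every ING2 siRNA array, while the WARS2 groups overlap.

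The remaining cytosolic genes spread on both sides of 0. CARS (0.16), GARS (0.14) and KARS (0.07), for cysteine, glycine and lysine, read higher on all ING2 siRNA arrays than on all control arrays, with limma adjusted p of 0.168, 0.262 and 0.508. VARS, for valine (0.19), YARS, for tyrosine (0.14), FARSB, the beta subunit of the phenylalanine enzyme (0.12), SARS, for serine (0.07), EPRS (0.06) and HARS, for histidine (0.03), overlapped between the groups. FARSA, the alpha subunit that pairs with FARSB, had a value of -0.10. LARS, the leucine enzyme gene, whose product also acts as a leucine sensor for mTORC1, had the lowest value of the set at -0.18 (SE 0.08, limma adjusted p = 0.162). LARS read 2862, 2873 and 2655 units on ING2 siRNA arrays, against 2968, 3359 and 3194 units on control arrays, with no overlap. IARS (-0.16), RARS (-0.09), NARS (-0.08) and TARS (-0.07), for isoleucine, arginine, asparagine and threonine, overlapped.

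The contrast of the 2 compartments was small. Of 17 cytosolic genes 11 had a value above 0 and 0 passed the limma threshold, while 2 had an unadjusted p under 0.05, and the median log2 change was 0.07. Of 15 mitochondrial genes 4 had a value above 0 and 1 passed, while 6 had an unadjusted p under 0.05, and the median was -0.08. Of all 19777 genes 12194 had a value above 0, 8.29% passed and 32.9% had an unadjusted p under 0.05. Their median was 0.06, and 9 of the 17 cytosolic and 3 of the 15 mitochondrial genes lay above it. Averaged over the genes, with the control mean set to 0, the cytosolic set stood at 0.05, 0.07 and 0.04 on ING2 siRNA arrays, against 0.00, 0.03 and -0.04 on control arrays. The mitochondrial set stood at -0.09, -0.03 and -0.08 on ING2 siRNA arrays, against 0.01, 0.03 and -0.04 on control arrays. Cytosolic minus mitochondrial was therefore 0.14, 0.10 and 0.12 on ING2 siRNA arrays, against 0.00, 0.00 and 0.00 on control arrays. The 2 sets moved together between the control arrays and stood apart on each ING2 siRNA array.

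This contrast was kept after quantile normalization and cyclic loess and lost with other choices of the probe set that stands for a gene. Median centring moves every gene of an array alike, so it could not change the difference. The cytosolic median minus the mitochondrial median was 0.15 in the deposited values, after median centring and after quantile normalization, and 0.19 after cyclic loess, but -0.00181 when probe sets of a gene were averaged and -0.01 with the most variable probe set, by interquartile range. The separate medians did depend on scaling. The cytosolic median was 0.18 after quantile normalization or cyclic loess and 0.00 after median centring, while the mitochondrial median was 0.04 after quantile normalization, -0.01 after cyclic loess and -0.15 after median centring.

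Intensity moved with the changes over the whole array. The median log2 change of all genes ran from 0.12 in the dimmest decile and 0.15 in the next to -0.09 in the brightest. Of the 17 cytosolic genes 12 lay in the brightest decile and 3 in the next, while the mitochondrial genes were spread over deciles 5 to 10. Set against the median of all genes in their own decile, 14 cytosolic genes lay above it and 3 below it (FARSA, IARS and LARS), with a median difference of 0.16. Of the mitochondrial genes 6 lay above and 9 below, with a median difference of -0.04. Deciles order probe sets by signal and do not compare the abundance of different mRNAs.

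**Figure D3:**
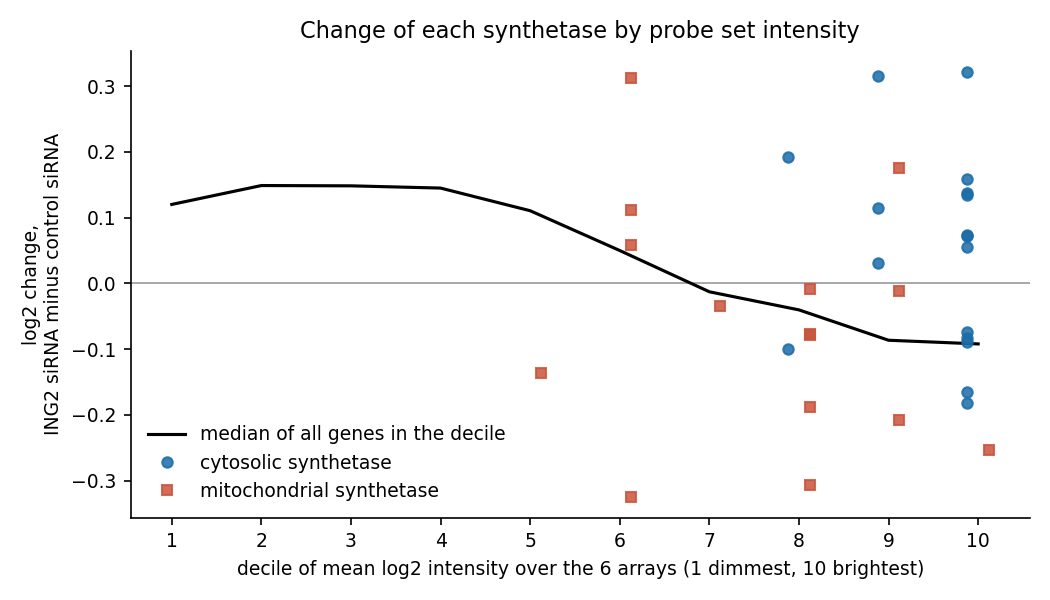
Log2 change of each synthetase, ING2 siRNA minus control siRNA, against its decile of mean log2 intensity over the 6 arrays, with the median of all genes in each decile as a line. Most cytosolic genes (circles) lie above the line in the bright deciles, and the mitochondrial genes (squares) lie on both sides of it.

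Enzymes of the same amino acid can be set side by side across the compartments. There are 15 such pairs among the measured genes, in which EPRS and FARS2 each occur in more than 1. At the brightest probe set of each gene, the cytosolic change exceeded the mitochondrial one in 11 pairs. The pairs were not remade with other probe sets, with which the difference of the compartment medians was lost. The widest gap was in the tryptophan pair: with the control mean set to 0, the log2 ratio of WARS over WARS2 was 0.66, 0.56 and 0.67 on ING2 siRNA arrays, against 0.28, -0.16 and -0.12 on control arrays. In the tyrosine pair the log2 ratio of YARS over YARS2 was 0.35, 0.39 and 0.64 on ING2 siRNA arrays, against 0.04, -0.07 and 0.03 on control arrays. Neither ratio overlapped between the groups. A dimmer WARS probe set gave a change of 0.13, and dimmer WARS2 probe sets gave -0.34 and 0.02.

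The proline pair went the other way, with EPRS over PARS2 at -0.15, -0.20 and -0.42 on ING2 siRNA arrays, against 0.03, 0.01 and -0.04 on control arrays. The cysteine, arginine and serine pairs had gaps of -0.02, -0.01 and 0.01 and overlapped. HARS and HARS2, for histidine, had values of 0.03 and -0.01. They are neighbouring genes and close copies in sequence, so cross-hybridisation between them cannot be told apart from signal. None of the 15 gaps was tested against 0.

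**Figure D4:**
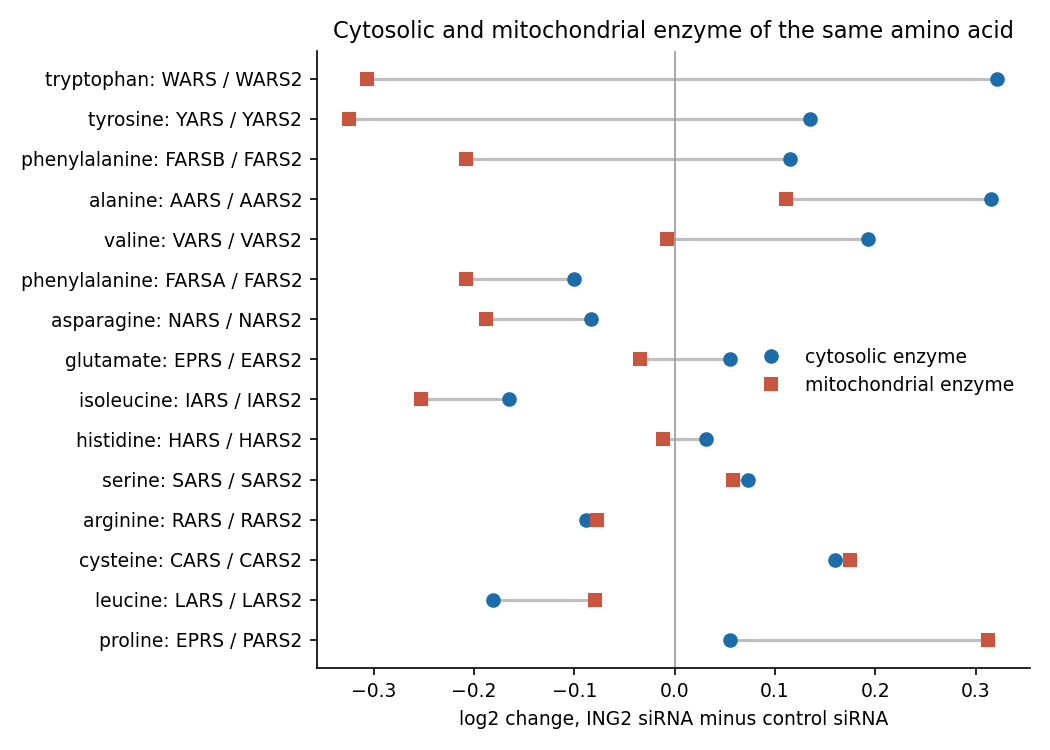
Log2 change, ING2 siRNA minus control siRNA, of the cytosolic (circle) and mitochondrial (square) enzyme of the same amino acid, joined by a line, for 15 pairs ordered by the gap. At the brightest probe set of each gene, the tryptophan and tyrosine pairs have the widest gaps with the cytosolic gene higher. The proline pair has the mitochondrial gene higher.

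Groupings by structure or by partner gave no set of genes that passed together. Of 5 measured enzymes of the multisynthetase complex (EPRS, IARS, KARS, LARS and RARS) 2 had a value above 0, with a median of -0.09 and 0 past the threshold. Of the 12 other cytosolic genes 9 had a value above 0, with a median of 0.13 and 0 past it. Over the whole array 12194 of 19777 genes had a value above 0, with a median of 0.06. Class I and class II enzymes differ in the fold of their catalytic domain. Class I, without EPRS, had a median of -0.08 over 16 genes, 1 of them past the threshold, and class II a median of 0.06 over 15 genes with 0 past it. Mitochondrial genes made up 9 of the 16 and 6 of the 15, and within the compartments the order was not the same. Cytosolic class I genes had a median of 0.14 and cytosolic class II genes 0.07, while the mitochondrial medians were -0.08 for class I and 0.02 for class II. GARS and KARS, the genes that serve both compartments, had values of 0.14 and 0.07.

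Many synthetase genes have several probe sets, and these often disagreed. Of 18 genes with more than 1, 13 had probe sets on both sides of 0. Over 67 probe sets, 2 passed the threshold when every probe set was tested on its own, or 2.99%, against 5.28% of all probe sets on the array. Both belong to RARS2, the mitochondrial arginine enzyme gene, in opposite directions. One RARS2 probe set read 253, 233 and 234 units on ING2 siRNA arrays, against 338, 365 and 299 units on control arrays (log2 change -0.47, limma adjusted p = 0.0311). A very dim RARS2 probe set read 14.4, 13.6 and 13.7 units on ING2 siRNA arrays, against 9.73, 11.6 and 9.51 units on control arrays (0.44, limma adjusted p = 0.0382). The brightest RARS2 probe set had a value of -0.08.

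EPRS showed the widest gap below its main probe set. A dimmer EPRS probe set read 199, 245 and 282 units on ING2 siRNA arrays, against 495, 354 and 320.0 units on control arrays, a log2 change of -0.68 (SE 0.17, limma adjusted p = 0.0530), while the brightest EPRS probe set gave 0.06. In CARS a dimmer probe set gave -0.36 (limma adjusted p = 0.0567) and the brightest gave 0.16. In CARS2 the 5 probe sets ran from -0.07 to 0.38. All 4 probe sets of LARS had values below 0 (-0.27 to -0.01), and both of WARS, of AARS2 and of YARS had values above 0. Which transcript forms these probe sets detect was not analysed here.

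**Figure D5:**
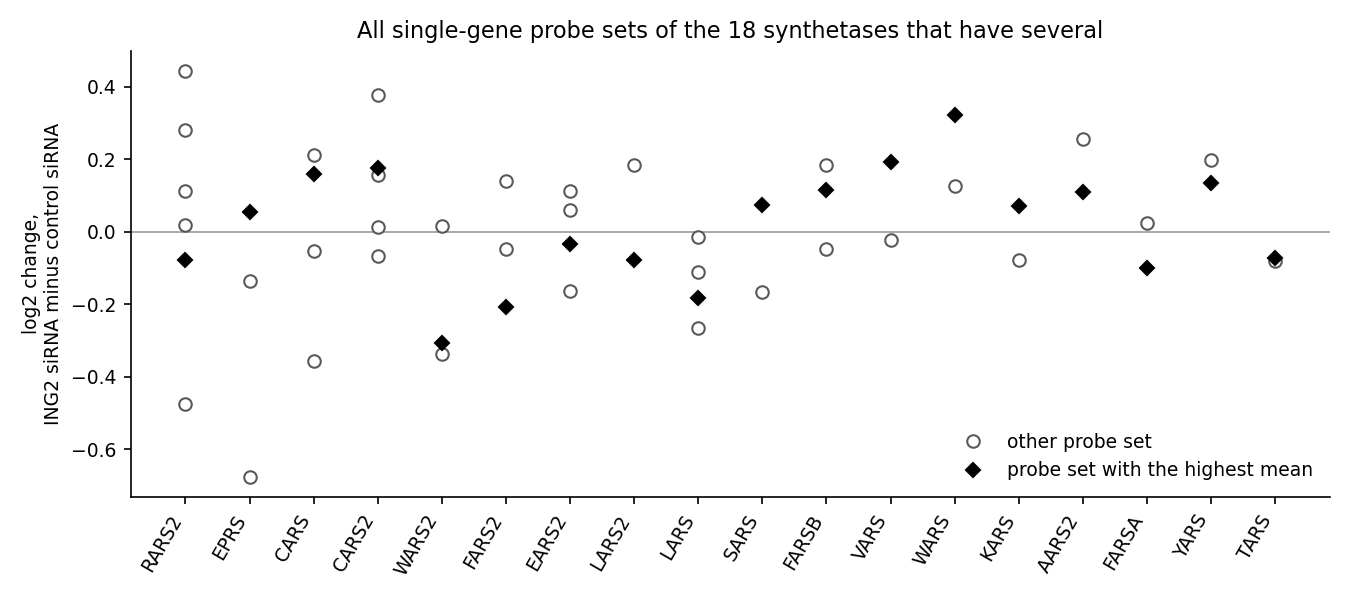
Log2 change, ING2 siRNA minus control siRNA, of every single-gene probe set of the 18 synthetases that have several, with genes ordered by the spread of their probe sets. Diamonds mark the probe set with the highest mean and open circles the others; RARS2, EPRS and CARS have the widest spread and lie on both sides of 0.

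Some promoters of cytosolic synthetase genes hold a sequence that ATF4 is known to bind together with a C/EBP partner, and it is shown here beside the genes reported in other work to follow ATF4. The letters TGATGNAA were searched on both strands of RefSeq windows (GRCh38.p14) that reach from 250 bases before each transcription start to 50 bases from it. A window was matched for 29 of the 35 genes, and 9 genes had more than 1. The letters were present for 7 of 16 cytosolic genes (AARS, CARS, GARS, IARS, MARS, NARS and TARS) and 1 of 13 mitochondrial genes (YARS2), against 4.46% of all 27305 genes with a window and 3.62% of all windows. Stretches around the match follow, written in the direction of the gene with the match in capitals. They lie at chr16:70289660-70289719 for AARS, chr11:3057392-3057451 for CARS, chr9:92293677-92293736 for IARS, chr18:57621789-57621848 for NARS, all on the minus strand, at chr5:33440941-33441000 on the plus strand for TARS and at chr12:32756061-32756120 on the minus strand for YARS2.
AARS: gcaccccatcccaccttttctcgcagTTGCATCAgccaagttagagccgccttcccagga
CARS: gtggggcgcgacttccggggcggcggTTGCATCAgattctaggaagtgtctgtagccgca
IARS: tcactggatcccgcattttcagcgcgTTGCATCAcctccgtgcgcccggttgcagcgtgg
NARS: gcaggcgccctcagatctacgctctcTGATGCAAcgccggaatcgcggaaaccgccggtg
TARS: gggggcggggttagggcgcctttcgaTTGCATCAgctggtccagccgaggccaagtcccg
YARS2: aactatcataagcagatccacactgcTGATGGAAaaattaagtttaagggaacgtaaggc

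The 5 cytosolic genes shown carry the identical letters TTGCATCA, read on one strand or the other, and differ in distance: 187 bases before the start in AARS, 13 before it in IARS, 2 before it in CARS, and 3 and 15 bases from the start in TARS and NARS. The log2 changes of these 5 genes did not run together, with 0.32 for AARS, 0.16 for CARS, -0.07 for TARS, -0.08 for NARS and -0.16 for IARS, none past the threshold. GARS, whose match reads TTTCATCA and is not shown, had 0.14 without overlap between the groups and did not pass either. Of the 10 measured cytosolic genes reported elsewhere to follow ATF4, 7 had a value above 0 and 0 passed, with a median of 0.10. The 7 other cytosolic genes had a median of 0.03, with 4 above 0 and 0 past the threshold. Over all genes the median was 0.06, with 12194 of 19777 above 0 and 8.29% past the threshold.

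WARS has 2 windows, and the downstream one holds the core of the interferon-stimulated response element, which on either strand was found for 1 of 16 cytosolic and 1 of 13 mitochondrial genes (EARS2), against 4.38% of all genes with a window. This search was added after the values were seen. The stretch at chr14:100375368-100375427 on the minus strand of GRCh38.p14 is given for the known interferon response of WARS, with the match in capitals.
WARS: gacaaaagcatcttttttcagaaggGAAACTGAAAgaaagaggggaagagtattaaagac

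Genes that work around the synthetases were taken from 9 lists, of which 133 of 147 genes were measured. In all, 3 rose and 10 fell, or 9.77%, against 8.29% of all genes. The list medians below stand beside a median of 0.06 for all genes. By intensity, that median ran from 0.05 in decile 6 to -0.09 in decile 10. In the amino acid response, 2 of 37 genes rose and 2 fell, or 10.8%, with a median of 0.10. PPP1R15A, which restores eIF2 to its unphosphorylated state, rose by 0.40 (SE 0.09, limma adjusted p = 0.0339), and CHAC1, which degrades glutathione, rose by 0.32 (SE 0.08, 0.0440). Neither passed after median centring, with PPP1R15A at 0.33 (limma adjusted p = 0.0518) and CHAC1 at 0.25 (0.0794), nor did CHAC1 after cyclic loess (0.0591). PSPH, the last enzyme of serine synthesis, fell by 0.73 (SE 0.13, limma adjusted p = 0.0217), and CTH, which makes cysteine from cystathionine, fell by 0.35 (SE 0.08, 0.0359). CTH did not pass after quantile normalization (-0.25, limma adjusted p = 0.0673) or cyclic loess (-0.29, 0.0539), nor PSPH with its probe sets averaged (-0.32, 0.0727). Further PSPH probe sets gave -0.39 and 0.17, and the gene has a close pseudogene copy, so PSPH is uncertain. Chosen after their values were seen, ATF4 itself (-0.04), the asparagine synthetase gene ASNS (-0.05), DDIT3 (0.24) and TRIB3 (0.20) did not pass. These 4 do not stand for the list. Of its 37 genes 23 had a value above 0. Groups did not overlap for 15 (9 higher and 6 lower), or 40.5%, against 36.5% of all genes (22.8% higher and 13.8% lower).

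Among eIF2 kinases, eIF2 and eIF2B, 0 of 14 genes rose and 2 fell, with a median of -0.08. EIF2AK4, which encodes GCN2, the kinase that senses uncharged transfer RNA, read 397, 451 and 416 units on ING2 siRNA arrays, against 533, 492 and 599 units on control arrays. It fell by 0.36 (SE 0.10, limma adjusted p = 0.0492), and a further EIF2AK4 probe set gave -0.38. The EIF2AK4 call was lost with quantile normalization (-0.26, limma adjusted p = 0.0998) and with cyclic loess (-0.31, 0.0807). IMPACT, which restrains GCN2 by competing with it for its activator GCN1, read 126.2, 158 and 118 units on ING2 siRNA arrays, against 202, 243 and 216 units on control arrays. It fell by 0.72 (SE 0.12, limma adjusted p = 0.0195), and its other probe set gave -0.43. GCN1 had a value of 0.04.

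AIMP1, a scaffold protein of the multisynthetase complex, was the 1 measured of 3 scaffold genes. It read 1011, 1043 and 910.5 units on ING2 siRNA arrays, against 1184, 1294.5 and 1215 units on control arrays, and fell by 0.32 (SE 0.09, limma adjusted p = 0.0494). Its 3 probe sets all had values below 0, from -0.50 to -0.32. The AIMP1 call was lost with quantile normalization (-0.20, limma adjusted p = 0.131) and with cyclic loess (-0.23, 0.104). Of 5 measured enzymes akin to the synthetases, 0 rose and 1 fell, or 20%, with a median of -0.31. PSTK, which phosphorylates serine on selenocysteine transfer RNA after SARS has charged it, fell by 0.55 (SE 0.10, limma adjusted p = 0.0232). A further PSTK probe set gave 0.20 and the average of both -0.17 (limma adjusted p = 0.0928). In mitochondrial transamidation and formylation all 4 genes had values below 0 and 0 passed, with a median of -0.21. MTFMT, which formylates the initiator methionine transfer RNA, had -0.28 (limma adjusted p = 0.0709) and QRSL1, a subunit of the glutamine amidotransferase, -0.22 (0.193).

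Among 8 mitochondrial translation factors 0 rose and 1 fell, or 12.5%, with a median of -0.18. The release factor gene MTRF1 fell by 0.37 (SE 0.09, limma adjusted p = 0.0339), and its other 2 probe sets gave 0.23 and -0.08, so that their average was -0.07 (0.482). Of 5 cytosolic elongation factors 0 passed, with a median of -0.02. EEF1A1, which carries charged transfer RNA to the ribosome, had -0.02 at its brightest probe set, which read 32538 to 33803 units on ING2 siRNA arrays and 33503 to 33575 units on control arrays, where 33803 is the highest value deposited. The other 5 EEF1A1 probe sets had values from -0.48 to -0.15, and the lowest of them passed when probe sets were tested singly (limma adjusted p = 0.0370). EEF1A2 had -0.30 (limma adjusted p = 0.0744).

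In transfer RNA maturation and export 0 of 22 genes rose and 2 fell, with a median of -0.07. SSB, the La protein that protects the ends of new transfer RNA precursors, read 1142, 1278 and 1008 units on ING2 siRNA arrays, against 1451, 2080.3 and 2231 units on control arrays. It fell by 0.73 (SE 0.16, limma adjusted p = 0.0302), and its other probe set gave -0.96. TSEN15, a subunit of the transfer RNA splicing endonuclease, fell by 0.31 (SE 0.08, limma adjusted p = 0.0479), with -0.60 and -0.55 at its other probe sets. The TSEN15 call was lost with quantile normalization (-0.19, limma adjusted p = 0.183) and with cyclic loess (-0.21, 0.135). Of 37 genes of transfer RNA modification 1 rose and 1 fell, with a median of -0.07. The methyltransferase subunit gene TRMT11 fell by 0.62 (SE 0.09, limma adjusted p = 0.0170), and ADAT3, a subunit of the deaminase that makes inosine at the wobble base, rose by 0.31 (SE 0.08, 0.0451). ADAT3 did not pass after median centring (0.24, limma adjusted p = 0.0843) or with its probe sets averaged (0.23, 0.0567). Of the 13 genes of these lists that passed, 11 passed in the fit that left out control replicate 1, and 11 in the one that left out ING2 siRNA replicate 2. None passed in the 4 fits that left out any other array (limma adjusted p 0.0613 to 0.156), in which 2 or 3 genes of the whole array passed.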

How the data were processed

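RNA from 6 samples (3 ING2 siRNA and 3 control siRNA) was measured on arrays with 54675 probe sets. The authors deposited linear intensity values between 4.05 and 33803, and RMA and R 2.12 are named per the submitters' processing notes. No scanner files were used here. Probe sets named by the 2016 platform annotation were kept if annotated to 1 gene (41091; 1801 named several and 11721 none, beside 62 controls), and 19735 of 19777 genes were matched to RefSeq names. Log2 intensities, with no pseudocount or filter, were fitted with limma 3.58.1 in R 4.3.3, ING2 siRNA minus control siRNA, with Benjamini-Hochberg adjustment over all genes at 0.05. Probe sets were also fitted singly. The procedure was tested on simulated data. Array measures were compared by exact two-sided permutation.

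Members and lists were chosen with earlier results of these data known. Every synthetase could be named. In each related list the genes past the threshold were named, up to 4 in each direction, or the 2 with the smallest p where none passed. Alternatives were 3 normalizations, removal of the dimmest 40% of probe sets, 2 other choices of probe set, a trended robust variance, a replicate block, a pseudocount of 16, and leaving out each array in turn. The main fit did not pair samples by replicate number. Correlations of the deviations of same-numbered arrays were 0.263, 0.291 and -0.019, against -0.311 to 0.1 for arrays of unlike number. Whether samples of the same number belong together is therefore not settled.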

Additional observations from a re-analysis of the deposited data

How the results depend on the processing

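Counts over all genes moved with the setting. Genes higher after ING2 siRNA, 716 as reported, numbered 260 after median centring, 447 after cyclic loess, 1229 with the mean of probe sets, 1307 with the most variable probe set by interquartile range, 1630 with the replicate block, and 0 to 1227 when 1 array was left out. Genes lower, 924 as reported, numbered 1450 after median centring, 1391 with the mean of probe sets, 1953 with the most variable probe set, 1436 with the trended robust variance, 1878 with the replicate block, and 2 to 1631 when 1 array was left out. There were 0 higher and 2 lower genes without control replicate 2 or without ING2 siRNA replicate 3, and 0 and 3 without control replicate 3 or without ING2 siRNA replicate 1.

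Cytosolic synthetases that were higher, 0 as reported, numbered 2 after quantile normalization, cyclic loess, removal of dim probe sets, the trended robust variance, the replicate block or a pseudocount, 1 with either other choice of probe set, and 0 to 2 when 1 array was left out; 2 were lower with the most variable probe set. Mitochondrial ones that were higher, 0 as reported, numbered 1 after removal of dim probe sets, with either other choice of probe set and with the replicate block. Those lower, 1 as reported, numbered 0 after quantile normalization, 3 with the most variable probe set, 2 with the trended robust variance or the replicate block, and 0 to 1 when 1 array was left out. The cytosolic median, 0.07, was 0.000677 after median centring, 0.18 after quantile normalization or cyclic loess, -0.0096 with the mean of probe sets and -0.014 with the most variable probe set. The mitochondrial median, -0.08, was -0.15 after median centring, 0.0384 after quantile normalization, -0.00553 after cyclic loess, -0.00779 with either other choice of probe set, and -0.12 to -0.0326 when 1 array was left out. Their difference, 0.15, was 0.19 after cyclic loess, -0.00181 with the mean of probe sets, -0.00625 with the most variable probe set, and 0.10 to 0.17 when 1 array was left out. With the most variable probe set, a choice that favours probe sets that vary, CARS was -0.36 and EPRS -0.68, against positive values as reported; otherwise the cause of these shifts was not tested. Of the 32 synthetases 16 changed sign in at least 1 of the alternatives. With the replicate block WARS2 passed as lower (-0.31, limma adjusted p = 0.0397). The samples share only a replicate number. Arrays of replicate 1 and of replicate 2 correlated best with each other, and those of replicate 3 did not. With 3 arrays a group, standard errors near 0.09 limit what can be called.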
